A study of Homo sapiens with 16 samples.

Results

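A panel of 10 genes that mark maturing monocytes and neutrophils was followed across the 4 groups of the experiment: S100A8, S100A9, S100A12, CD14, ITGAM, FCN1, CSF1R, FCGR1A, NCF4 and CSF3R. They were taken by name as a marker panel, with earlier results of these data known, and they are 10 of the 18991 genes in the count table. All 10 are in that table, 8 had enough reads to be tested, and S100A12 and FCN1 were almost without reads.

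The cells were MOLM13, a human acute myeloid leukemia (AML) line with a KMT2A fusion, which stably expressed Cas9 and had been transduced with a lentiviral guide RNA and kept under blasticidin and puromycin. One set carried YBX1-sgRNA1, which directs Cas9 to the cold-shock protein gene YBX1 (called sgYBX1 here), and the other a non-targeting guide (sgLUC). Cells were lysed 14 days after transduction, and poly(A) RNA was sequenced either from whole lysate (total RNA) or from polysomal fractions of a sucrose gradient (polysomal RNA), with 4 replicates in each of the groups total sgLUC, total sgYBX1, polysomal sgLUC and polysomal sgYBX1. All groups share the Cas9 transgene, the selection drugs and 1 cell line, a single guide stands for the knockout, and the transduced cells were not cloned. The study's methods describe cycloheximide, which holds ribosomes on the mRNA, before lysis for gradients.

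S100A8 and S100A9 pair to form calprotectin, a calcium- and zinc-binding protein that neutrophils and monocytes hold in their cytoplasm in large amounts and that blasts gain as they mature. CD14, a co-receptor for bacterial lipopolysaccharide, and FCN1, a secreted ficolin, mark classical monocytes, whereas ITGAM (the CD11b chain of a beta-2 integrin), CSF1R and CSF3R (receptors for the colony-stimulating factors of macrophages and granulocytes), FCGR1A (the high-affinity IgG receptor CD64) and NCF4 (the p40phox subunit of the phagocyte NADPH oxidase) are carried by both lineages to different degrees. Many of these genes are driven by PU.1 and C/EBP transcription factors.

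Libraries held 38326270 to 66164414 counts. YBX1 itself, the targeted gene, lay at 865 to 910 CPM (a gene's counts relative to the library's total, scaled by TMM factors) in total sgLUC and 496 to 551 CPM in total sgYBX1 RNA, and at 802 to 966 against 623 to 665 CPM in polysomal RNA, so knockout and control libraries were apart in both fractions. The labelled lineage was checked on 8 genes of myeloid leukemia (PTPRC, CD33, FLT3, HOXA9, MEIS1, SPI1, MPO and LYZ), all of which had counts in every group. Markers of other lineages were low where they define the lineage: the highest group means of CD3E, MS4A1 and PAX5 were 0.0476, 0.0122 and 0.0654 CPM, and 8 erythroid and megakaryocyte genes summed to at most 1.22 CPM in any library. In bulk RNA, fewer mature cells and less RNA per cell cannot be told apart.

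The 2 calprotectin genes carry the results that follow, so the DNA before their start sites is shown. S100A8 (chromosome 1, 153390032 to 153391188, minus strand) and S100A9 (chromosome 1, 153357854 to 153361027, plus strand) lie in the S100 cluster with S100A12 between them (GRCh38, GENCODE annotation). The windows are the 250 bases before a RefSeq start on GRCh38.p14, written 5′ to 3′ on the gene's strand, at chr1:153391189-153391438 for the outermost of 3 S100A8 starts and at chr1:153357604-153357853 for S100A9. Capitals mark matches, on either strand, to GAGGAA (the core of PU.1 sites), TTNCNNAA (a C/EBP pattern) or CCAAT (the core of a Y-box); no 2 of these matches overlap in the windows shown.
S100A8: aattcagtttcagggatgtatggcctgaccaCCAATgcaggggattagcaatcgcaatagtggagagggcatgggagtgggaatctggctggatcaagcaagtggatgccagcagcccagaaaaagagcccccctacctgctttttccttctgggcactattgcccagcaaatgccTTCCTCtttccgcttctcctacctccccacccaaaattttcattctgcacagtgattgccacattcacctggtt
S100A9: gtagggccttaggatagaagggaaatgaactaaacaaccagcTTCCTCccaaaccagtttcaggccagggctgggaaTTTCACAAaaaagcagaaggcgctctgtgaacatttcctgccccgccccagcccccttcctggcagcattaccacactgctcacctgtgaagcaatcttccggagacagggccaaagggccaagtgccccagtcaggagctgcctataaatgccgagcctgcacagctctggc

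Read on the opposite strand, GAGGAA is TTCCTC, which is present once in each window. GAGGAA was in 9 of the 13 windows that RefSeq gives for 9 of the members (NCF4 had no window), against 23.6% of all 35116 windows in the table. TTNCNNAA was in 8 of the 13, against 33.2%, and CCAAT in 3 of the 13 (the outermost S100A8 window, a CSF3R window and the FCN1 window), against 32%. The S100A8 starts differed in this. The outermost window, shown above, had CCAAT and no TTNCNNAA match. The middle and innermost windows had 1 and 2 TTNCNNAA matches and no CCAAT. The 3 S100A8 windows overlap one another, and a match is a run of letters, not a bound site. After the sequences were seen, TATAAA was searched on the gene strand in bases 40 to 11 before each start. It was found in 2 of the 13 windows, those of S100A9 and of the middle S100A8 start, and in 2.34% of all windows. In both genes the run began 29 bases before the start, as the 30-base stretches at chr1:153391084-153391113 and chr1:153357814-153357843 show with TATAAA in capitals.
S100A8, middle start: agcctaaccgcTATAAAaaggagctgcctc
S100A9, same stretch: caggagctgccTATAAAtgccgagcctgca

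To compare levels between genes, CPM was divided by the length of merged exons. These pool all annotated transcripts of a gene: 8429 bases for CSF3R (2589 coding) and 1006 for S100A8 (279 coding), against 577 for S100A9 (342 coding). The order below therefore depends on the annotation, and which transcripts the cells used was not tested. In total sgLUC RNA, CSF3R led the panel with 16.5 ± 0.472 CPM per kilobase (SD, n = 4), followed by NCF4 with 14.6 ± 0.464, FCGR1A with 5.26 ± 0.469 and CSF1R with 2.83 ± 0.158. S100A9 stood at 2.06 ± 0.21, ITGAM at 1.34 ± 0.0799, S100A8 at 1.05 ± 0.245 and CD14 at 0.0484 ± 0.0431 CPM per kilobase. The ranges of neighbours in this order did not overlap, except for ITGAM and S100A8. So CSF3R and NCF4 stood well above the other members, CSF1R lay close to S100A9, and CD14 was lowest of the 8 tested. In polysomal sgLUC RNA the order per kilobase was NCF4 (107 ± 3.42), FCGR1A (22.3 ± 4.89), S100A8 (12.7 ± 0.814), CSF3R (11.5 ± 1.44), S100A9 (7.4 ± 1.59), ITGAM (1.43 ± 0.171), CSF1R (1.17 ± 0.201) and CD14 (0.248 ± 0.246). There S100A8 and CSF3R overlapped, as did ITGAM and CSF1R. In polysomal sgYBX1 RNA, S100A8 was at 4.58 ± 0.524 CPM per kilobase, below CSF3R at 10 ± 0.875 with no overlap.

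At or near the detection floor were 3 members. S100A12, the third calgranulin, had 0 counts in 14 libraries and 1 count in each of polysomal sgYBX1 replicates 2 and 4. FCN1 had 0 counts in 15 libraries and 2 counts in total sgYBX1 replicate 4. A count of 0 allows up to 3 counts, or 0.0453 to 0.0783 CPM (unscaled) depending on the library (counting error only), so neither gene was detectable above that level in either guide's libraries and no fold is given. Most low counts in the table were even, so 2 counts may be the mates of 1 fragment, and the raw counts given here may then stand for fewer fragments and the floor be too low. CD14 had counts in 14 of 16 libraries, but few. Its raw counts were 18, 4, 4 and 3 in total sgLUC, 4, 12, 6 and 0 in total sgYBX1, 11, 43, 14 and 0 in polysomal sgLUC and 14, 16, 7 and 4 in polysomal sgYBX1 RNA. The guides overlapped in both fractions.

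In total RNA, the comparison of sgYBX1 with sgLUC asks which mRNAs change in abundance after loss of YBX1. S100A8 and S100A9 both fell to 44.7% and 39.7% of their control level, and none of the other 6 tested members passed the test. Over all 12517 genes tested, 15.9% were called in this comparison (6.53% higher and 9.34% lower) and 17.6% had groups that did not overlap, against 2 and 3 of the 8 members. With so few members, a count of 2 says little by itself. The called genes split into 41.1% higher with TMM factors and 65.8% higher when only library totals were used for scaling.

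S100A8 was at 0.855, 1.41, 1.05 and 0.923 CPM in the total sgLUC libraries (73 to 95 raw counts) and at 0.574, 0.463, 0.429 and 0.389 CPM in total sgYBX1 (26 to 49 counts). Every knockout library lay below every control library. The log2 fold change was −1.16 ± 0.229 (SE; 44.7% of control; adjusted p = 0.000822), from edgeR's quasi-likelihood test with Benjamini-Hochberg adjustment over all genes, which also gave the other adjusted p-values here. S100A9 was at 1.34, 1.11, 1.07 and 1.24 CPM in total sgLUC (60 to 114 counts) and at 0.27, 0.475, 0.536 and 0.629 CPM in total sgYBX1 (23 to 45 counts). Again the groups were apart, by a log2 fold change of −1.33 ± 0.228 (39.7% of control; adjusted p = 0.000174). Ranked by fitted fold change, S100A9 was 48th and S100A8 75th from the lowest of the 12517 genes.

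The surface receptors CSF3R, ITGAM, CSF1R and FCGR1A stayed close to control in total RNA. CSF3R was at 134, 142, 141 and 142 CPM in total sgLUC and 158, 144, 154 and 145 CPM in total sgYBX1. These ranges were apart by a narrow margin, and the log2 difference of 0.11 ± 0.0376 missed the threshold (adjusted p = 0.0512); CSF3R passed the test in 9 of 17 refits under other settings, DESeq2 among them (adjusted p = 0.0188). ITGAM differed by 0.13 ± 0.0733 (adjusted p = 0.26), CSF1R by 0.05 ± 0.0619 (adjusted p = 0.615) and FCGR1A by 0.13 ± 0.0623 (adjusted p = 0.172) on the log2 scale, each with overlapping groups. Their 95% intervals were narrow, from −0.07 to 0.18 for CSF1R and from 0.01 to 0.25 for FCGR1A. NCF4 stood at −0.13 ± 0.0563 (adjusted p = 0.131), and 1 knockout library set it apart: replicate 2 at 26.8 CPM against 22.2 to 22.5 in the other knockout libraries and 24.7 to 26.6 in the controls. Without that library NCF4 was at −0.20 (adjusted p = 0.0142). CD14 was at −0.41 ± 0.704 (adjusted p = 0.753), and the sign turned to 0.49 without total sgLUC replicate 1. Its 95% interval was wide, from −1.79 to 0.97, so a change of CD14 is neither shown nor excluded.

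**Figure D1:**
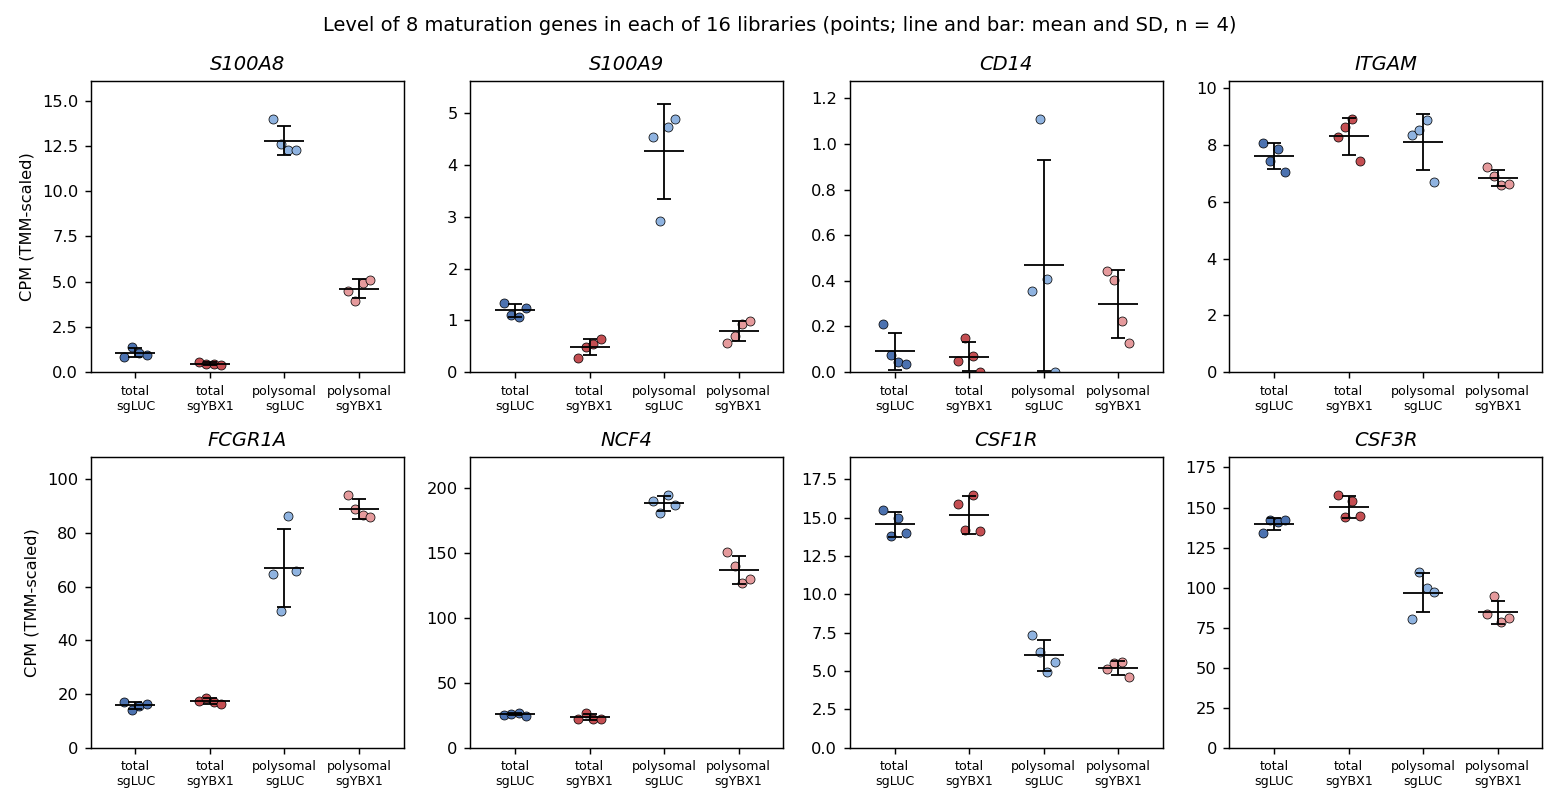
CPM (TMM-scaled, linear axis from 0, one scale per gene) of the 8 tested genes in each of the 16 libraries, as points by group, with the mean and SD over 4 libraries. S100A8 and S100A9 are lower in both knockout groups than in their controls with no overlap, and NCF4 is lower in polysomal knockout RNA (127 to 151 against 181 to 195 CPM).

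In polysomal RNA, the same comparison asks which mRNAs change in the ribosome-loaded pool. The calprotectin pair fell again, S100A9 by more than S100A8, NCF4 fell to 72.7% and FCGR1A rose to 133% of control. CD14, ITGAM, CSF1R and CSF3R did not pass. Of all 12517 genes, 21.2% were called here (11.3% higher and 9.93% lower), against 1 higher and 3 lower of the 8 members, and 22.1% had groups that did not overlap, as did 3 members. The median log2 fold change was −0.35 over the members and −0.03 over all genes. Scaling by library totals alone moved the all-gene median to −0.18 and the share of calls that were higher from 53.2% to 26.2%, and NCF4, S100A8 and S100A9 stayed lower under every scaling tried.

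S100A8 was at 14, 12.6, 12.3 and 12.3 CPM in polysomal sgLUC (401 to 487 counts) and at 4.49, 3.92, 4.92 and 5.1 CPM in polysomal sgYBX1 (142 to 159 counts). The groups were far apart, at a log2 fold change of −1.47 ± 0.173 (36% of control; adjusted p = 2.56e-06). S100A9 was at 4.54, 2.91, 4.73 and 4.89 CPM in polysomal sgLUC (113 to 163 counts) and at 0.569, 0.703, 0.926 and 0.995 CPM in polysomal sgYBX1 (18 to 31 counts). The highest knockout library was well below the lowest control. The log2 fold change of S100A9 was −2.42 ± 0.325 (18.7% of control; adjusted p = 1.19e-05), 33rd from the lowest of 12517 genes. Both genes kept their calls in all 17 refits of each fraction, with S100A9 between −2.58 and −2.29 in polysomal RNA and between −1.48 and −1.13 in total RNA.

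NCF4 was at 190, 181, 195 and 187 CPM in polysomal sgLUC and 151, 140, 127 and 130 CPM in polysomal sgYBX1. No knockout library reached the control range (log2 fold change −0.46 ± 0.11; 72.7% of control; adjusted p = 0.00301). An antisense gene, NCF4-AS1, overlaps it, and the library kit does not mark strand, so reads of the 2 genes cannot be told apart. FCGR1A was at 64.6, 50.9, 86.5 and 66 CPM in polysomal sgLUC and 94.3, 89, 86.9 and 85.8 CPM in polysomal sgYBX1. Control replicate 3 reached the knockout range, and the rise of 0.41 ± 0.13 on the log2 scale (133% of control; adjusted p = 0.0235) was lost with library totals alone (0.26, adjusted p = 0.136) and without any one of 5 libraries (polysomal sgLUC replicates 2 and 4 and polysomal sgYBX1 replicates 1, 2 and 3; adjusted p from 0.0516 to 0.0917). FCGR1A has a near-identical copy, FCGR1B, and overlaps HIST2H2BF and an antisense gene on the other strand, so its counts may be shared. The reads given to FCGR1B rose in both fractions, by 0.43 ± 0.097 in total RNA (adjusted p = 0.00324, lost at 0.242 in a fit over all 16 libraries) and by 0.80 ± 0.157 in polysomal RNA (adjusted p = 0.000493). HIST2H2BF, a histone gene, had 10 to 63 counts per library against 752 to 3546 for FCGR1A.

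The other receptors had larger standard errors in polysomal than in total RNA. CSF3R was at 80.5, 110, 99.6 and 97.4 CPM in polysomal sgLUC and 83.7, 95, 78.3 and 80.8 CPM in polysomal sgYBX1 (−0.20 ± 0.118; adjusted p = 0.254). With library totals alone it passed at −0.34 (adjusted p = 0.0344). ITGAM was at −0.24 ± 0.177 (adjusted p = 0.357) and CSF1R at −0.21 ± 0.202 (adjusted p = 0.519), with 95% intervals from −0.59 to 0.10 and from −0.60 to 0.19. CD14 was at −0.64 ± 0.908 (adjusted p = 0.674), and without polysomal sgLUC replicate 2 it stood at 0.24.

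**Figure D2:**
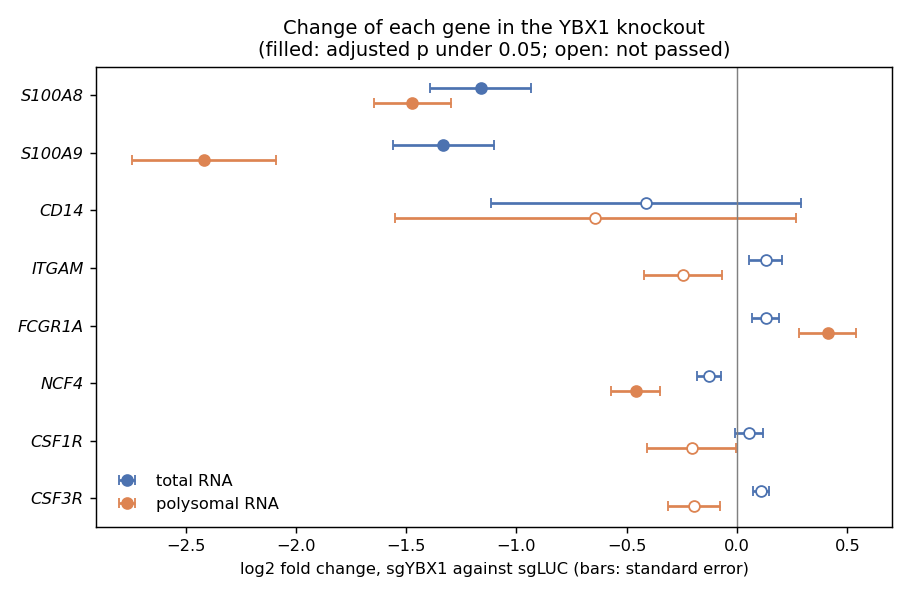
Log2 fold change of sgYBX1 against sgLUC (x axis) for each of the 8 tested genes, in total RNA (blue) and polysomal RNA (orange), with the standard error as bars and filled points where the adjusted p was under 0.05. S100A9 in polysomal RNA lies farthest from 0 at −2.42, and FCGR1A in polysomal RNA is the only filled point above 0.

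Whether the polysomal change differed from the total change was tested for each gene in 1 model over all 16 libraries. The model takes a common spread per gene for both fractions. The spread between replicates (edgeR's biological coefficient of variation) was 0.0567 in total sgLUC and 0.038 in total sgYBX1 RNA. It was 0.22 in polysomal sgLUC and 0.149 in polysomal sgYBX1 RNA. A common spread is then too wide for total and too narrow for polysomal RNA. Of all 12517 genes, 16.7% were called (9.84% higher and 6.89% lower in polysomal RNA), so that 58.8% of the calls were higher (20.1% with library totals alone, which moved the all-gene median from −0.04 to −0.23), and 1 of the 8 members was called, as lower. NCF4 fell more in polysomal than in total RNA, by a log2 difference of −0.33 ± 0.108 (adjusted p = 0.0367). The call rests on single libraries: it was lost in 9 of 16 refits without 1 library (adjusted p from 0.0503 to 0.109), most of all without total sgYBX1 replicate 2, the library in which NCF4 was high (−0.26, adjusted p = 0.109). The other 8 losses came without each of total sgLUC replicates 1, 2, 3 and 4, polysomal sgLUC replicates 1 and 4 and polysomal sgYBX1 replicates 3 and 4. S100A9 had the largest fitted difference of the panel, −1.10 ± 0.408, but did not pass (adjusted p = 0.0689). It passed with DESeq2 (−1.08, adjusted p = 0.0324), with library totals alone (−1.30, adjusted p = 0.0245) and without total sgYBX1 replicate 1 or polysomal sgLUC replicate 2 (adjusted p = 0.0356 and 0.0308). S100A8 was at −0.31 ± 0.259 (adjusted p = 0.459), so a steeper polysomal than total fall was not shown for it, with an interval from −0.82 to 0.20. CSF3R was at −0.31 ± 0.119 (adjusted p = 0.082), ITGAM at −0.37 ± 0.168 (adjusted p = 0.135) and CSF1R at −0.26 ± 0.173 (adjusted p = 0.332). CD14 was at −0.23 ± 1.3 (adjusted p = 0.934) and FCGR1A at 0.28 ± 0.159 (adjusted p = 0.247). CSF3R passed in 3 of 24 refits, with its lowest adjusted p under library totals alone (−0.49, adjusted p = 0.00713). ITGAM passed with library totals alone (−0.57, adjusted p = 0.0173) and FCGR1A without polysomal sgLUC replicate 3 (0.43, adjusted p = 0.0224).

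The ratio of S100A9 to S100A8 counts within a library compares the 2 calprotectin subunits without any scaling between libraries. In total RNA the ratios were 1.56, 0.789, 1.02 and 1.34 in sgLUC and 0.469, 1.03, 1.25 and 1.62 in sgYBX1. These overlapped almost wholly (log2 difference −0.20 ± 0.442; exact permutation test, two-sided, p = 0.714). In polysomal RNA they were 0.325, 0.232, 0.385 and 0.399 in sgLUC and 0.127, 0.179, 0.188 and 0.195 in sgYBX1. Every knockout library was below every control (log2 difference −0.95 ± 0.229; exact permutation p = 0.0286, the smallest that 4 against 4 can give; 0.0381 after Benjamini-Hochberg adjustment over the 4 ratio comparisons). The ratio was also lower in polysomal than in total RNA, by −1.80 ± 0.282 in sgLUC and −2.55 ± 0.41 in sgYBX1 cells on the log2 scale, with no overlap in either (exact permutation p = 0.0286 each; adjusted 0.0381). Whether the knockout changed the ratio more in polysomal than in total RNA was not tested. These ratios rest on 18 to 163 S100A9 counts per library.

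**Figure D3:**
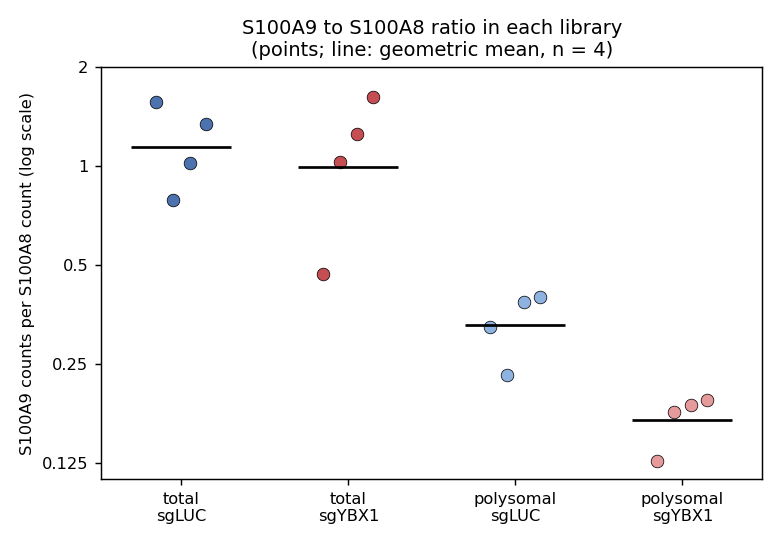
Counts of S100A9 per count of S100A8 (log axis) in each library by group, with the geometric mean over 4 libraries as a line. The total RNA groups overlap around 1, and in polysomal RNA the knockout libraries (0.127 to 0.195) lie below the controls (0.232 to 0.399).

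Polysomal and total RNA were then compared within each guide, which sets each member's level in the ribosome-loaded pool against that in total RNA, relative to the other genes. The labels and the study's methods differ on the kit that extracted total RNA. A difference in preparation between the fractions therefore cannot be told apart from ribosome loading here. In sgLUC cells 79.6% of all genes were called (38.2% higher and 41.4% lower), against 5 higher and 2 lower of the 8 members. In sgYBX1 cells 84.6% were called (40.6% higher and 44.0% lower), against 4 higher and 3 lower. A call by itself is therefore close to the background, and the values are given for their size and direction. In sgLUC cells, S100A8 was 12.2-fold higher in polysomal RNA (log2 3.61 ± 0.175, adjusted p = 5.51e-10), NCF4 7.34-fold (2.88 ± 0.0788, adjusted p = 6.76e-12), FCGR1A 4.24-fold (2.09 ± 0.145, adjusted p = 1.82e-08) and S100A9 3.58-fold (1.84 ± 0.222, adjusted p = 4.58e-06). CD14 was also called higher (2.33 ± 0.931, adjusted p = 0.0345), but its groups overlapped and 4 of the 8 libraries each ended the call when left out (total sgLUC replicates 2, 3 and 4 and polysomal sgLUC replicate 2). CSF1R and CSF3R were lower in polysomal RNA, at 41.2% (−1.28 ± 0.136, adjusted p = 1.3e-06) and 69.4% (−0.53 ± 0.0956, adjusted p = 2e-04) of the total level. ITGAM was at 0.09 ± 0.13 (adjusted p = 0.524). These values are relative to the average gene as TMM sets it. With library totals alone the all-gene median moved from −0.08 to −0.93 in sgLUC and from −0.10 to −1.15 in sgYBX1 cells, and ITGAM then stood at −0.76 in sgLUC cells (adjusted p = 9.4e-05).

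In sgYBX1 cells the picture was close to this for most members. S100A8 was 9.84-fold higher in polysomal RNA (log2 3.30 ± 0.231), NCF4 5.83-fold (2.54 ± 0.0786), FCGR1A 5.15-fold (2.36 ± 0.0666) and CD14 4.29-fold (2.10 ± 0.756, with overlapping groups), while CSF1R was at 34.4%, CSF3R at 56.2% and ITGAM at 82.3% of the total level. The CD14 call was lost without total sgYBX1 replicate 1 (adjusted p = 0.0515), and that of ITGAM (−0.28 ± 0.111, adjusted p = 0.0279) without any one of total sgYBX1 replicates 1, 2 and 3 (adjusted p from 0.0635 to 0.097). S100A9 was the member that did not pass: at 0.74 ± 0.407 its adjusted p was 0.102 and its polysomal and total libraries overlapped, and with library totals alone it stood at −0.31. It passed in 3 of 18 refits, with DESeq2 among them (0.81, adjusted p = 0.0488). Whether this gap between polysomal and total RNA differs between the guides is the test of the difference given above, which S100A9 did not pass.

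The members differ in the length of their coding sequence, from 93 codons in S100A8 and 114 in S100A9 through 348 in NCF4, 374 in FCGR1A and 375 in CD14 to 863 in CSF3R, 972 in CSF1R and 1153 in ITGAM. The 5 tested members with the shorter coding sequences were the 5 called higher in polysomal RNA of sgLUC cells. Over the 8 tested members Pearson's r between log2 codons and the polysomal against total change was −0.813 in sgLUC and −0.715 in sgYBX1 cells (Spearman's rho −0.762 and −0.786), as a description over genes that share all libraries. Over the 12394 tested genes with a coding length (99% of those tested) it was −0.256 and −0.189 (rho −0.268 and −0.203). In sgLUC cells the median log2 change of all genes was 0.86 for up to 200 codons, 0.29 for 200 to 400, −0.31 for 400 to 800 and −0.64 above 800. S100A8, NCF4, FCGR1A and CD14 lay above the upper quartile of their length class (2.10 and 1.40), S100A9 lay below it, and the 3 long members lay within the quartiles of theirs.

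**Figure D4:**
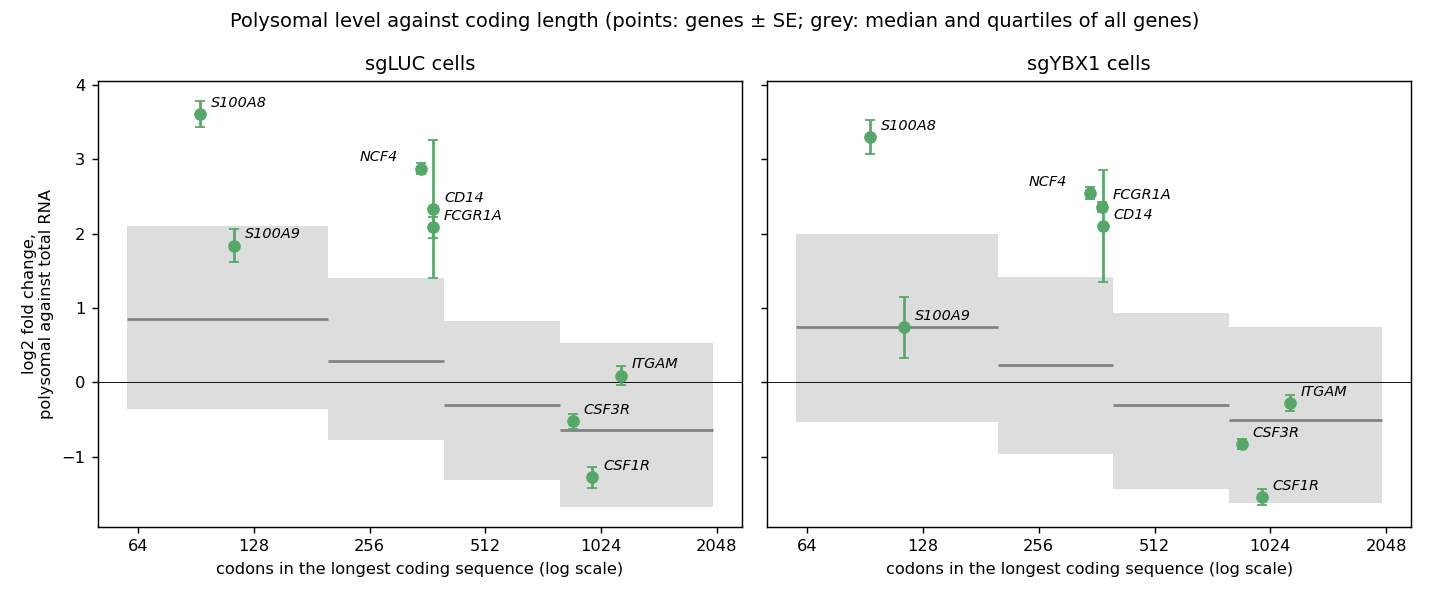
Log2 fold change of polysomal against total RNA (y axis, ± SE) against codons in the longest coding sequence (log axis) for the 8 tested genes, in sgLUC cells (left) and sgYBX1 cells (right), with the median and quartiles of all genes in 4 length classes in grey. S100A8 lies highest in both panels (3.61 and 3.30), and S100A9 moves from 1.84 in sgLUC to 0.74 in sgYBX1 cells.

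The genes whose log2 CPM over the 16 libraries was most like that of S100A8 were MYBPH (r = 0.991), PRG2 (r = 0.988) and WDR54 (r = 0.987), out of 9096 genes whose mean reached 5 CPM. PRG2 encodes the eosinophil granule major basic protein, and its mean was 292 CPM in total sgLUC, 153 in total sgYBX1, 1520 in polysomal sgLUC and 844 in polysomal sgYBX1 RNA. For S100A9 they were APMAP (r = 0.943), RPLP0 (r = 0.937), a ribosomal stalk protein, and MPO (r = 0.933), the myeloperoxidase of primary granules. MPO averaged 86.8 and 62 CPM in total and 114 and 70.6 CPM in polysomal sgLUC and sgYBX1 RNA. Since the libraries fall into 4 groups, these correlations mainly restate the order of the group levels.

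The wider pathways were read from gene lists chosen with earlier results of these data known, beside the shares called over all genes given above. Of 13 tested monocyte and macrophage markers outside the panel, 7 fell and 0 rose in total RNA, with a median of −0.25 against −0.01 over all genes. LYZ, which encodes lysozyme, fell by 0.81 on the log2 scale (SE 0.0367, adjusted p = 3.11e-14) and CD36, a scavenger receptor, fell by 0.73 (SE 0.101, adjusted p = 1.13e-05). In polysomal RNA 2 of the 13 fell and 1 rose. LYZ fell there by 1.10 (SE 0.118, adjusted p = 9.53e-07), while MNDA, an interferon-responsive nuclear protein of myeloid cells, rose by 0.94 (SE 0.116, adjusted p = 5.24e-06). Of 18 other neutrophil maturation markers 4 could be tested, and 1 fell in total RNA, the chemokine receptor CXCR2 (−0.26 ± 0.0556, adjusted p = 0.00189), and 0 were called in polysomal RNA by edgeR (1 at an unadjusted p under 0.05, and 1 by DESeq2). Among 9 other S100 genes tested, S100A6 alone was called, lower in total RNA (−0.19 ± 0.0507, adjusted p = 0.0109), a call lost without total sgLUC replicate 4 or total sgYBX1 replicate 2 and in a fit over all 16 libraries, and 0 of the 9 were called in polysomal RNA by edgeR (2 at an unadjusted p under 0.05, and 0 by DESeq2).

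Around CD14, 4 of 11 tested genes of lipopolysaccharide signalling fell in total RNA, among them the receptor TLR4 (−0.47 ± 0.0667, adjusted p = 1.56e-05) and the kinase IRAK1 (−0.16 ± 0.0385, adjusted p = 0.00528), and 0 of 11 were called in polysomal RNA by edgeR (4 at an unadjusted p under 0.05, and 2 by DESeq2). Around ITGAM, the related alpha chain ITGAX (CD11c) rose in total RNA (0.58 ± 0.0859, adjusted p = 2.99e-05) and the ligand ICAM3 fell (−0.31 ± 0.0409, adjusted p = 6e-06), 1 higher and 2 lower of 7 tested. In polysomal RNA 2 of the 7 fell: ICAM3 (−0.40 ± 0.114, adjusted p = 0.0121) and ITGB2, the beta chain that pairs with ITGAM (−0.38 ± 0.119, adjusted p = 0.0201). Leaving out 1 library ended the ITGB2 call in 4 cases (polysomal sgLUC replicates 3 and 4, polysomal sgYBX1 replicates 2 and 4) and the ICAM3 call in 2 (polysomal sgYBX1 replicates 3 and 4; adjusted p = 0.0529 and 0.0544).

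Around NCF4, 2 of 8 genes of the phagocyte NADPH oxidase fell in total RNA: CYBB, the catalytic gp91phox subunit (−0.79 ± 0.0666, adjusted p = 3.61e-09), and the GTPase RAC1 (−0.21 ± 0.0405, adjusted p = 0.000679). In polysomal RNA CYBB fell by 1.02 (SE 0.225, adjusted p = 0.00155), RAC2 fell by 0.39 (SE 0.122, adjusted p = 0.0213) and RAC1 was the 1 gene that rose. The RAC2 call ended without polysomal sgLUC replicate 2 or any of polysomal sgYBX1 replicates 1, 3 and 4 (adjusted p from 0.059 to 0.111). Around FCGR1A, the kinase SYK fell (−0.28 ± 0.0356, adjusted p = 3.6e-06) and FCGR1B rose among 9 Fc receptor genes tested in total RNA, and FCGR1B alone was called in polysomal RNA. Of 4 tested colony-stimulating factor receptors, ligands and signalling genes beside CSF1R and CSF3R, and of the 1 tested gene of the ficolin list, 0 passed in either fraction in edgeR (0 at an unadjusted p under 0.05, and 0 by DESeq2). Of 13 myeloid transcription factors 1 fell in total RNA, IRF8 (−0.20 ± 0.0361, adjusted p = 0.000381), and in polysomal RNA 1 rose and 3 fell, with EGR1 at 1.08 ± 0.221 (adjusted p = 0.000847) and IRF8 at −0.56 ± 0.125 (adjusted p = 0.00179).

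In a fit over all 16 libraries, which called 136 genes in total RNA, S100A8, S100A9, LYZ and CYBB kept their total RNA calls, while those of CD36, CXCR2, S100A6, TLR4, IRAK1, ITGAX, SYK, FCGR1B, RAC1 and IRF8 were lost. That fit, too, takes a common spread for both fractions, while total RNA replicates spread less than polysomal ones. The cause of the lost calls was not tested.

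Values of other lineages moved with the knockout in part. The summed level of 7 epithelial genes, nearly all of it KRT18, was 4.38 to 5.57 CPM in total sgLUC and 6.69 to 8.25 CPM in total sgYBX1 RNA. In polysomal RNA it was 24.6 to 29.8 against 33.6 to 43.8 CPM. KRT8 had group means of 0.25 and 0.438 CPM in total sgLUC and total sgYBX1 RNA. Its means were 1.2 and 1.54 CPM in polysomal sgLUC and polysomal sgYBX1 RNA. Group means were at most 0.309 CPM for KRT19, 0.0634 CPM for CDH1 and 0.0229 CPM for KRT5. The 9 lymphoid genes in the table, mostly NKG7, summed to 28.2 to 29.9 against 23.7 to 28.4 CPM in total and 132 to 168 against 102 to 125 CPM in polysomal RNA. Their part in the results above was not tested.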

How the data were processed

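Poly(A) RNA of 16 MOLM13 libraries was sequenced with paired ends. Per the processing notes of the submitters, the tools included DESeq2 1.30.0, featureCounts 2.0.1, Trimmomatic 0.36.5 and STAR 2.7.8a, and the build was GRCh38; the annotation and strand setting are not given in the sources used here. The authors deposited raw counts per gene without normalization. The table was read by Entrez identifier and named through a second deposited table, whose mean normalized signal per gene (the authors' value) correlated on the log2 scale at 0.993 with the mean count under that key and at 0.005 under the identifier column beside it. Identifiers without a name (1471) held 2.41e-05% of counts. The authors' own fold changes and p-values were not used. The labels and the study's methods differ on the kit that extracted total RNA.

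Counts were tested in edgeR 4.0.16 (R 4.3.3) by quasi-likelihood F tests, with DESeq2 1.42.0 and limma 3.58.1 as alternatives. Genes were kept by filterByExpr (12517), scaled by TMM over 16 libraries and called at an adjusted p under 0.05 (Benjamini-Hochberg, two-sided); the SE is the log2 fold change over the root of F. Each fraction, and each guide for polysomal against total RNA, had an 8-library fit; the difference used all 16. The scripts were tested on simulated data, with 50 changed genes, drawn at random from all tested genes, for each size of change. Each group had a common spread for all genes, so the shares below are averages over levels and not those of a given member. At 1.5-fold, 88% were recovered in total RNA, 26% in polysomal RNA and 24% for the difference. At 2-fold these shares were 92%, 66% and 68%. A missing call in polysomal RNA or for the difference therefore does not show that a change is absent. Per the study's supplement, the fractionated replicates were separate cultures of 1 cell line, so p-values cover the spread between cultures of that line; the source of the total RNA is not given there. Members and lists were chosen with earlier results of these data known. Named were all members, YBX1, up to 2 genes of smallest adjusted p per list and comparison, and the 3 genes most correlated with S100A8 and S100A9; FCGR1B and HIST2H2BF were added for their shared or overlapping reads. Alternatives were other scaling, filters and tools, halved counts (63.5% and 60.8% of counts from 1 to 39 were even in total and polysomal RNA), a joint fit, a replicate block, voom weights and leaving out each library; TMM over 8 libraries was added after seeing the data.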

Additional observations from a re-analysis of the deposited data

Results flagged for a closer look

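The change of NCF4 differed between polysomal and total RNA by −0.33 on the log2 scale (edgeR interaction test, adjusted p = 0.0367). It was the one such difference past the threshold among the 8 tested members. The call was lost in 11 of 24 refits under other settings.

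Over 36 sets of 4 libraries (8 genes and the calprotectin ratio in each group), 2 held a library far from the rest by Dixon's criterion, which flags about 1 set in 20 by chance. NCF4 in total sgYBX1 replicate 2 was at 26.8 CPM against 22.2 to 22.5 CPM. CSF3R in total sgLUC replicate 1 was at 134 CPM against 141 to 142 CPM.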

How the results depend on the processing

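Of 744 refits of a tested member under another setting, 674 kept direction and side of the threshold, 36 lost the call, 23 gained it and 11 changed sign. The falls of S100A8 and S100A9 in both fractions and of NCF4 in polysomal RNA kept their calls throughout. Calls in total RNA over all genes went from 1986 to 136 in the fit over all 16 libraries and to between 1336 and 3137 without 1 library (highest without total sgLUC replicate 2), and member calls from 2 to between 2 and 4. In polysomal RNA calls went from 2655 to 4639 in the joint fit and to between 1724 and 2879 without 1 library. The joint fit takes a common spread for both fractions, although polysomal replicates spread more. For the difference, member calls went from 1 to 4 with library totals alone (3371 against 2095 genes in all), 0 without an expression filter, 2 with DESeq2 and between 0 and 2 without 1 library. The sign of CD14 was not stable: without 1 library it ran from −1.11 to 0.49 in total RNA, −1.05 to 0.24 in polysomal RNA and −1.09 to 0.66 for the difference (0.95 with voom weights). With library totals alone ITGAM in sgLUC cells went to −0.76 and S100A9 in sgYBX1 cells to −0.31, between polysomal and total RNA. Without 1 library the S100A9 to S100A8 log2 difference ran from −0.43 to 0.16 in total RNA and from −1.12 to −0.81 in polysomal RNA, where the 4 refits without a knockout library gave an exact p of 0.0571. The causes were not tested.

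Same-numbered libraries of compared groups correlated between −0.251 and 0.472, and at most 1 of 4 matched its own number best, so the numbers were not taken as pairs. With a replicate block the difference called 0 members (NCF4 at −0.33, adjusted p = 0.0517) and CD14 stood at 0.32; the polysomal ratio kept −0.95 with an exact sign-flip p of 0.125, the smallest 4 pairs allow. Between polysomal and total RNA the block also ended the calls of CD14 in sgLUC (adjusted p = 0.0844) and ITGAM in sgYBX1 cells (adjusted p = 0.0808).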
